A study of Mus musculus with 6 samples.

Results

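The genes described here encode the NADPH oxidase of phagocytes and a close relative of its catalytic subunit, measured in microglia of the rostral nucleus of the solitary tract (NST) of mice on postnatal day 15. The members were fixed by name as Cybb, Cyba, Ncf1, Ncf4, Rac2 and Nox4. They are 6 of the 26789 genes in the deposited table, and all 6 passed the filter on low values (an average of 10 normalized counts or more across libraries). The study's methods name C57Bl/6 for the control mice of its nerve terminal experiments and give no strain for the RNA sequencing mice. Control litters came from dams kept on standard chow. Litters of the E3–E12 diet group were carried by dams given a low-sodium diet and distilled water during early gestation. Those dams had standard chow and tap water from then on. Each group had 3 libraries, and each library pooled the NST tissue of littermates from a single litter, so the litter is the replicate and no value belongs to 1 animal. The labels name no altered allele in either group. The study's methods describe selection of cells with CD11b magnetic beads, whereas the deposited description names laser microdissection. CD11b is carried by other myeloid cells as well as by microglia, and its gene Itgam was among the genes measured.

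The oxidase of phagocytes moves electrons from NADPH across a membrane onto oxygen and so makes superoxide, which these cells use to kill microbes and as a signal. The catalytic chain (the product of Cybb, also called NOX2) sits in the membrane bound to the product of Cyba, and stays silent until cytosolic subunits join it. They include the organizer encoded by Ncf1, the lipid-binding subunit encoded by Ncf4, and a Rac GTPase, which in blood-derived cells is largely the product of Rac2. Microglia carry the same complex, where it is best known from inflammation and from the clearance of dying neurons. NOX4 also binds the Cyba product but needs no cytosolic subunit, makes mainly hydrogen peroxide, and is best known from kidney, vessel wall and fibroblasts.

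The members lie on 5 chromosomes of the mouse genome (build GRCm38). Cybb spans chrX:9435252-9487771 on the minus strand, Cyba chr8:122424776-122432930 on the minus strand, Ncf1 chr5:134220053-134229625 on the minus strand and Nox4 chr7:87246096-87398710 on the plus strand. Ncf4 at chr15:78244801-78262580 (plus strand) and Rac2 at chr15:78559167-78572783 (minus strand) are neighbours on 1 chromosome, 297 kb apart with 10 protein-coding genes between them. RefSeq promoter sequences, reaching from 250 bases before to 50 bases after the start of transcription, were at hand for 4 of the 6 members, without Ncf4 and Rac2. Those of Cybb, Ncf1 and Nox4 are shown because they set the catalytic chain of the phagocyte complex and its organizer beside the relative that other cell types use. They come from chrX:9469275-9469574 (minus strand), chr5:134229576-134229875 (minus strand) and chr7:87246399-87246698 (plus strand) of GRCm38.p6. Capitals mark GAGGAA, read on either strand (TTCCTC on the other), a form of the site bound by the myeloid factor PU.1. The shorter core GGAA shared by ETS factors is not marked.
Cybb: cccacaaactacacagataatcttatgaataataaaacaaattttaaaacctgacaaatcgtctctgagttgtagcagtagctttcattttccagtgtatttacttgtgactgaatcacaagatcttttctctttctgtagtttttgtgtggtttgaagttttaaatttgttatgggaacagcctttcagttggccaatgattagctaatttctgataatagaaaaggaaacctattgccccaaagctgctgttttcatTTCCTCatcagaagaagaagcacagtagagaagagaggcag
Ncf1: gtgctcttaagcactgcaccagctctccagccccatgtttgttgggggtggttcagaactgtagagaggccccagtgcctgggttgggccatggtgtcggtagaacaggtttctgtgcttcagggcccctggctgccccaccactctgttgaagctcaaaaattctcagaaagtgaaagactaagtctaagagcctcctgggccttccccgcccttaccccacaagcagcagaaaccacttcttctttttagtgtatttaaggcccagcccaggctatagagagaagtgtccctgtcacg
Nox4: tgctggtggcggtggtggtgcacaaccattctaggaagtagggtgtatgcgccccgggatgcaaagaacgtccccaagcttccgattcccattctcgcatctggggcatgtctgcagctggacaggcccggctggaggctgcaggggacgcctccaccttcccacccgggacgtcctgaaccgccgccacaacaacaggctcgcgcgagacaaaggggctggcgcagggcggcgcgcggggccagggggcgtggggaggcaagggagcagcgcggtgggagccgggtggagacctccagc
The Cybb promoter held the motif once, on the reverse strand, beginning at position 260 of the 300 bases, just after the RefSeq start of transcription. The RefSeq starts used for Cybb and Nox4 lie inside the gene spans given above, not at their outer ends. The Ncf1, Cyba and Nox4 windows did not hold these letters, and 28.3% of 32851 promoters of the same length did. In base composition the members were far apart. The Cybb promoter was 35.3% G and C with 1 CpG, and only 3.98% of promoters had less. Ncf1 was at 54.0% with 3 CpG and Cyba at 60.7% with 9, against a median over all promoters of 52.7% with 7. The Nox4 promoter was at 68.3% with 24 CpG, above 88.0% of promoters.

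The table holds normalized counts, which are values per gene that were adjusted before deposit in a way that does not return whole reads, so the reads behind a value are unknown. Library totals ran from 9.41e+06 to 1.72e+07 normalized counts. The highest total was that of control replicate 2, which also listed 10640 genes at 0 against 3459 to 7135 in the other 5 libraries. The 12 microglia markers, among them Cx3cr1, P2ry12 and Tmem119, were above 0 in every library. Their summed level was 97198, 513232 and 243906 normalized counts in the 3 control libraries and 99061, 235288 and 301185 in the 3 diet libraries, so it varied more within a group than between the groups. In such bulk samples, fewer cells of a type and less RNA per cell cannot be told apart.

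The subunits stood at widely different levels. Per kilobase of exon, the cytosolic organizer and the Rac GTPase Rac2 stood highest among the members. Means over the 6 libraries were 883 normalized counts per kilobase for Ncf1 (428 to 1343) and 717 for Rac2 (334 to 1405). These ranges overlap each other and lie above those of the other 4 members. In all 6 libraries the top pair was Ncf1 and Rac2, with Ncf1 first in 5 and Rac2 first in control replicate 2. The membrane pair followed, with Cybb at 141 normalized counts per kilobase (95.4 to 267) and Cyba at 102 (0 to 210), and then Ncf4 at 91.8 (24.1 to 202). Cybb, Cyba and Ncf4 took different places from library to library and their ranges overlap. Nox4 was lowest at 17.5 (2.11 to 59.9), although it stood above Cyba in control replicate 2 and above both Cyba and Ncf4 in E3–E12 diet replicate 1. Among the 17865 genes tested for which a length was known, the mean levels per kilobase stood at percentile 97.3 for Ncf1, 96.6 for Rac2, 79.8 for Cybb, 72.9 for Cyba, 70.4 for Ncf4 and 26.3 for Nox4. Rac1, the Rac GTPase made in all cells and no member here, was at 2486 normalized counts per kilobase, above Rac2 in each library. These orders rest on 1 gene model per gene and on exon length alone.

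**Figure D1:**
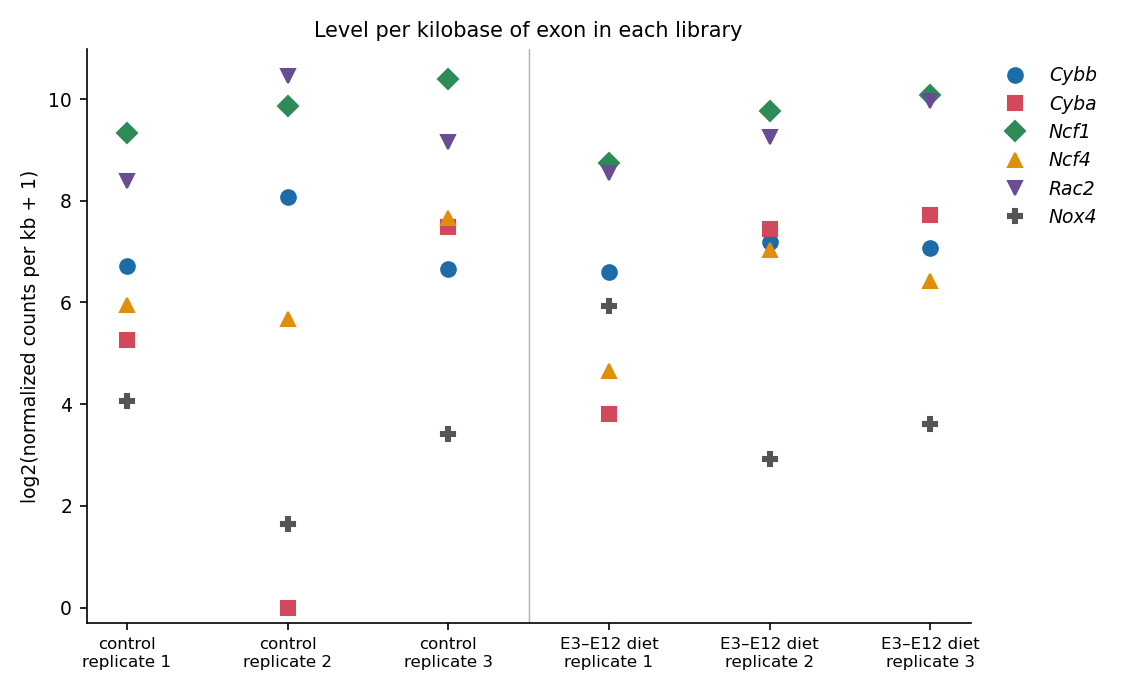
Level of each member per kilobase of exon (vertical axis, log2 of normalized counts per kilobase + 1) in each of the 6 libraries (horizontal axis, controls left of the grey line, E3–E12 diet right). Ncf1 and Rac2 are the top pair in all 6 libraries, and Nox4 is lowest in 4 of them.

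The diet comparison asks whether the maternal low-sodium diet left the oxidase genes of the offspring's microglia at another level. No member differed between the groups beyond the spread between litters in the deposited values. All 6 members overlapped between the groups, none passed the adjusted threshold of 0.1 (limma, Benjamini-Hochberg over 18007 genes, adjusted p = 0.999 for each), and none had an unadjusted p under 0.05. The same fit called 0 genes of the whole table at the adjusted threshold (0% of the genes tested), 327 genes at an unadjusted p under 0.05 (1.82%), and found 1062 genes whose groups do not overlap (5.90%). Of those 327 genes 171 were higher and 156 lower in the diet group, and with quantile normalization 197 of 491 were higher. The study, with DESeq2 on counts, lists genes in both directions at an adjusted p under 0.1. Among them are Gpx1, Aldoc and, by its full name, Fcer1g, but none of the 6 members. Fold changes below are differences of mean log2(normalized count + 1), E3–E12 diet minus control, with the standard error (SE) and 95% interval of the limma fit, and each exact permutation p is two-sided with 0.1 the smallest value that 3 against 3 libraries allow.

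Cybb, the catalytic chain, measured 605, 1549.9 and 583 normalized counts in the control libraries and 554, 837 and 780.3 in the diet libraries. Control replicate 2 stood alone at the top and the other 5 libraries lay within 554 to 837. The means were 912 ± 552 and 724 ± 150 (SD, n = 3 each), a log2 fold change of −0.20 (SE 0.64, interval −1.73 to 1.34, exact permutation p = 0.8). Without control replicate 2 the log2 fold change was 0.26.

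Cyba, the membrane partner that stabilizes both NOX2 and NOX4, measured 38.8, 0 and 185 normalized counts in the control libraries and 13.4, 179 and 218 in the diet libraries. Low and high libraries occurred in both groups, and control replicate 2 listed the gene at 0 although its Cybb value was the highest of all. The fitted log2 fold change of 2.09 (SE 2.06, interval −2.83 to 7.01, exact permutation p = 0.6) rests on that 0, and was −0.052 without control replicate 2. Listing at 0 was more frequent in that library for other genes of this level too. Of 5322 genes tested whose mean over all libraries was within 2-fold of that of Cyba, 9.62% were listed at 0 in control replicate 2 and 0.996% to 2.37% in the other libraries. Among the 693 of them with at most 1500 exon bases, as Cyba has, the share was 12.1% against 2.45% to 5.19%. Gpx4, whose product removes lipid peroxides, was also listed at 0 there. Gpx4 was low in other libraries too, at 16.0 normalized counts in E3–E12 diet replicate 1 and 8.89 in E3–E12 diet replicate 3. Why Cyba was listed at 0 was not tested, and its value in control replicate 2 is given only as listed.

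Ncf1, the organizer that carries the cytosolic subunits to the membrane, measured 2371, 3423 and 4920.5 normalized counts in the control libraries and 1569, 3165 and 3962 in the diet libraries. It had the highest normalized counts of the 6 members in 5 of the 6 libraries, and the diet values spread almost as widely as the control values. The means were 3571 ± 1281 and 2899 ± 1219 (SD, n = 3 each), a log2 fold change of −0.34 (SE 0.65, interval −1.88 to 1.20, exact permutation p = 0.6). Leaving out E3–E12 diet replicate 1, the lowest library, gave 0.051. Of the Ncf1 exon bases 11.1% (408 bases) lie opposite an exon of Gtf2ird2, and 8.15% of its transcript, read in windows of 50 bases, is found again in Gtf2ird2 or Zhx3. Whether reads were counted by strand is not given in the sources used here, so reads of Ncf1 and Gtf2ird2 cannot be fully told apart. Gtf2ird2 itself was far lower, at 349 to 649.9 normalized counts in the control and 474 to 1100.1 in the diet libraries.

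Ncf4, whose product binds phosphoinositides on phagosomes, measured 124, 101 and 407 normalized counts in the control libraries and 48.8, 262 and 170.3 in the diet libraries. Its highest value was in control replicate 3 and its lowest in E3–E12 diet replicate 1, 8.35-fold apart. The means were 211 ± 171 and 160.3 ± 107 (SD, n = 3 each), a log2 fold change of −0.40 (SE 0.90, interval −2.56 to 1.75, exact permutation p = 0.8). The sign turned when control replicate 3 was left out (0.22), and likewise for E3–E12 diet replicate 1 (0.29).

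Rac2, a GTPase of blood-derived cells that can switch the assembled complex on, measured 1037, 4361 and 1769 normalized counts in the control libraries and 1162, 1902 and 3111 in the diet libraries. As for Cybb, control replicate 2 was highest. The means were 2389 ± 1747 and 2058 ± 984 (SD, n = 3 each), a log2 fold change of −0.07 (SE 0.76, interval −1.90 to 1.76, exact permutation p = 1). Leaving out control replicate 2 gave 0.49, and leaving out E3–E12 diet replicate 1 gave 0.28. The direction also turned when libraries were rescaled, to 0.048 by library total and 0.10 by quantile normalization.

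Nox4 measured 133, 17.9 and 81.5 normalized counts in the control libraries and 508, 55.7 and 95.6 in the diet libraries. E3–E12 diet replicate 1 held the highest value, 28.4-fold above the lowest in control replicate 2, and the remaining diet libraries lay inside the control range. The means were 77.6 ± 57.8 and 219.7 ± 250.3 (SD, n = 3 each), a log2 fold change of 1.25 (SE 1.12, interval −1.42 to 3.92, exact permutation p = 0.5). It was 0.32 without E3–E12 diet replicate 1 and 0.42 without control replicate 2. The 9 mural and fibroblast markers summed to 15972, 2324 and 13697 normalized counts in the control libraries and 17340.3, 6635 and 9275 in the diet libraries. Both Nox4 and this sum had their minimum in control replicate 2 and their maximum in E3–E12 diet replicate 1, but control replicate 1 came close to that maximum with a Nox4 value of 133. Among the 9, Col1a1 was highest in E3–E12 diet replicate 1 (2229 normalized counts), whereas 4 were highest in control replicate 1 and 4, with the fibroblast genes Dcn and Lum, in control replicate 3. None of these 9 markers was at 0 in every library, 1 was at 0 in some, and their part in the Nox4 values was not tested.

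**Figure D2:**
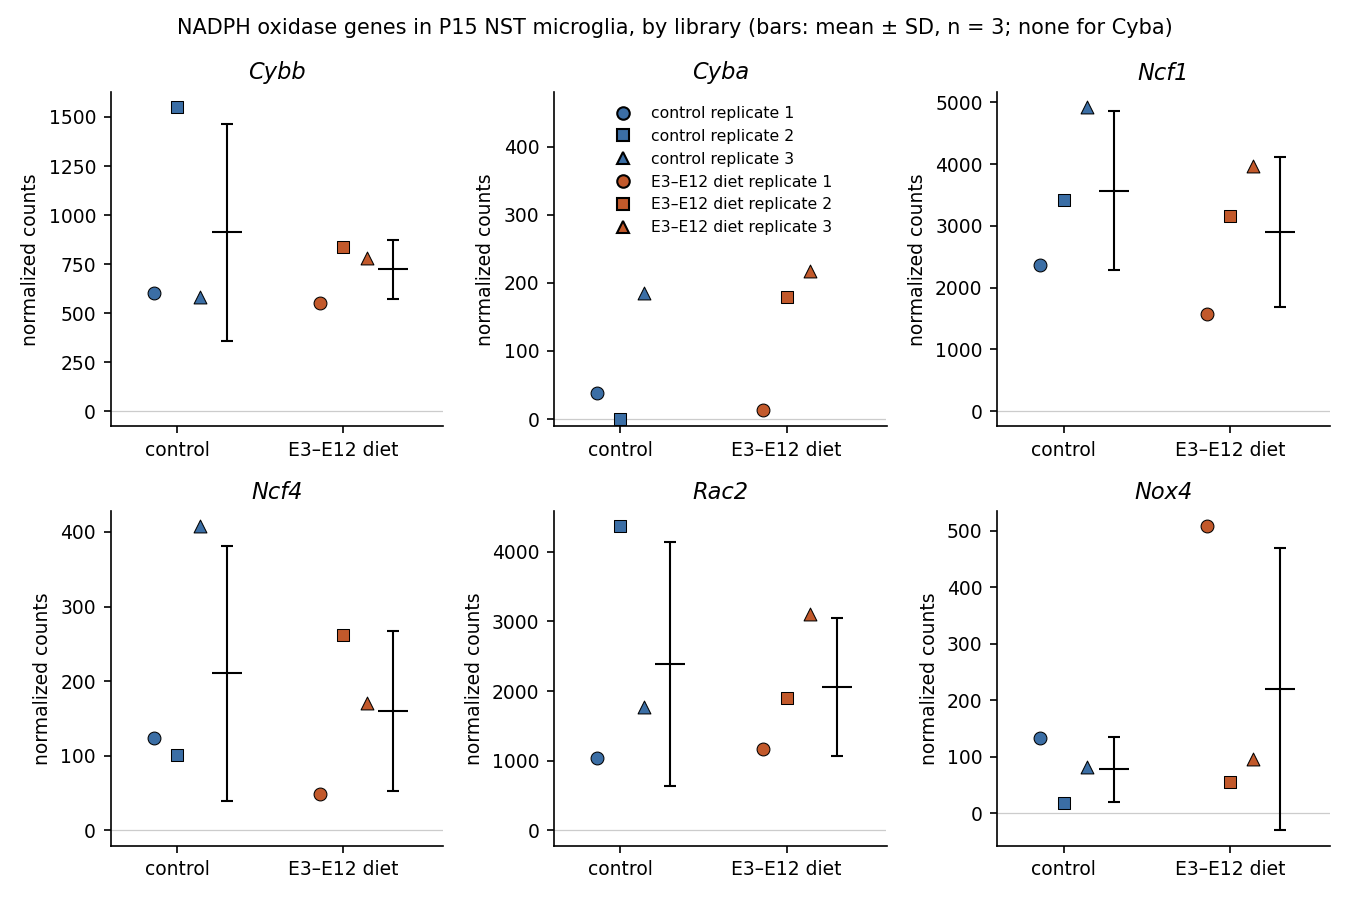
Normalized counts (vertical axes, linear) of the 6 members in the 3 control (blue) and 3 E3–E12 diet (orange) libraries, each point a library of 1 litter and the bars the mean ± SD of 3 libraries, left out for Cyba because it is listed at 0 in control replicate 2. The groups overlap in every panel, with single high libraries for Cybb and Rac2 (control replicate 2) and Nox4 (E3–E12 diet replicate 1). Control replicate 2 also had the highest library total.

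A factor common to all genes of a library cancels in a ratio, except near 0, where the added 1 counts. The subunits were therefore also set against Cybb and against the mean of the 12 microglia markers. Rac2 kept the steadiest proportion to Cybb. Its log2 ratio ranged over 1.22 across the 6 libraries, whereas its own level ranged over 2.07, and the means were 1.29 ± 0.45 in controls and 1.41 ± 0.51 in the diet group (SD, n = 3 each, exact permutation p = 0.9). Ncf1 was above Cybb in all 6 libraries, with log2 ratios of 2.06 ± 0.97 and 1.92 ± 0.42 (SD, n = 3 each, exact permutation p = 0.9), and its ratio ranged over 1.93 where its level ranged over 1.65. The log2 ratio of Ncf4 to Cybb was −2.24 ± 1.71 in controls and −2.45 ± 0.93 in the diet group (SD, n = 3 each, exact permutation p = 1). For Nox4 it was −3.79 ± 2.25 and −2.34 ± 1.97 (SD, n = 3 each, exact permutation p = 0.6), and in E3–E12 diet replicate 1 Nox4 came within −0.13 of Cybb. Cyba to Cybb gave log2 ratios of −3.93, −10.60 and −1.65 in the control libraries, against −5.27, −2.22 and −1.84 after the diet, the lowest being the library in which Cyba was listed at 0.

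Against the microglia markers, Rac2 again varied least. Its log2 ratio to the marker mean was −2.03 ± 0.44 in controls and −1.84 ± 0.33 in the diet group (SD, n = 3 each), and ranged over 1.06. Cybb stood at −3.32 ± 0.80 and −3.26 ± 0.70 and Ncf1 at −1.26 ± 0.82 and −1.34 ± 0.28 (SD, n = 3 each). Control replicate 2 had the highest normalized counts of Cybb and Rac2. Its log2 ratios to the markers, −3.31 for Cybb and −1.81 for Rac2, lay inside the range of the other libraries. Of the 11 ratios computed (5 to Cybb and 6 to the markers), 0 were without overlap between the groups, the lowest exact permutation p was 0.5 and the adjusted values ran from 0.96 to 1. Without control replicate 2, the ratio of Ncf4 to the markers no longer overlapped (−4.73 in controls, −5.70 in the diet group, exact permutation p = 0.2). Without E3–E12 diet replicate 1, the groups of Cyba to the markers were also just apart, at −5.79 in control replicate 3 against −5.78 in E3–E12 diet replicate 3, a gap far smaller than the spread within the controls.

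**Figure D3:**
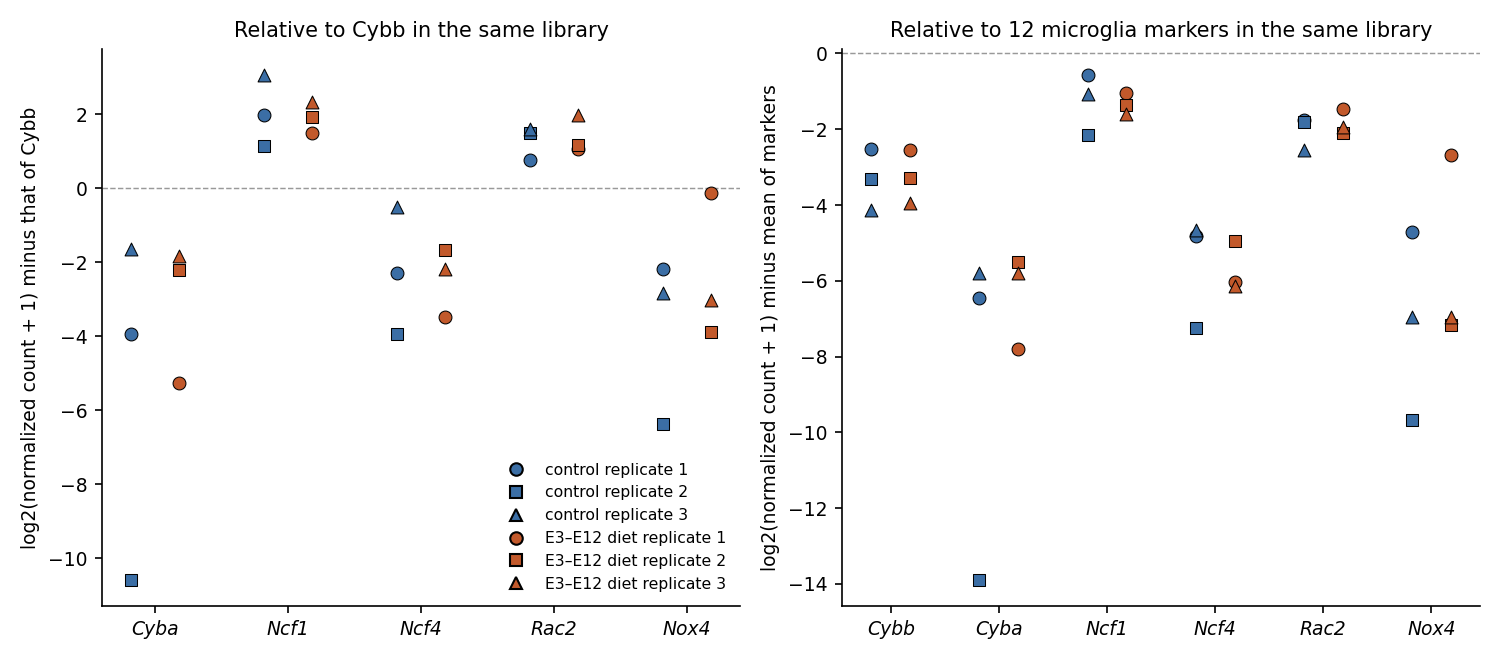
Log2 ratio of each member to Cybb (left) and to the mean of 12 microglia markers (right) in the same library, on log2(normalized count + 1), for 3 control (blue) and 3 E3–E12 diet (orange) libraries. Rac2 ranges over 1.22 and 1.06 in the respective panels, and the groups overlap for all 11 ratios.

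Other genes that assemble and switch on the complex were measured beside the members. Rac1 averaged 10773 ± 4377 and 11583 ± 7850 normalized counts (SD, n = 3 each) and Rap1a, a small GTPase that copurifies with the membrane pair, 374 ± 141 and 316 ± 90.5. Cybc1, a chaperone of the membrane pair, averaged 507 ± 163 and 657 ± 589 normalized counts, and Hvcn1, the proton channel that balances the charge moved by the oxidase, 1198 ± 589 and 1185 ± 691 (SD, n = 3 each). The groups overlapped for each of these genes. Of the 14 assembly and activation genes listed, all were tested, 2 were higher and 12 lower, and the median log2 fold change was −0.22, against −0.14 for the 6 members and 0.09 for all genes tested. The 12 microglia markers were all lower, with a median of −0.28, so a lean of this size was not particular to the oxidase genes. None of the 14 had an unadjusted p under 0.05 or groups without overlap.

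**Figure D4:**
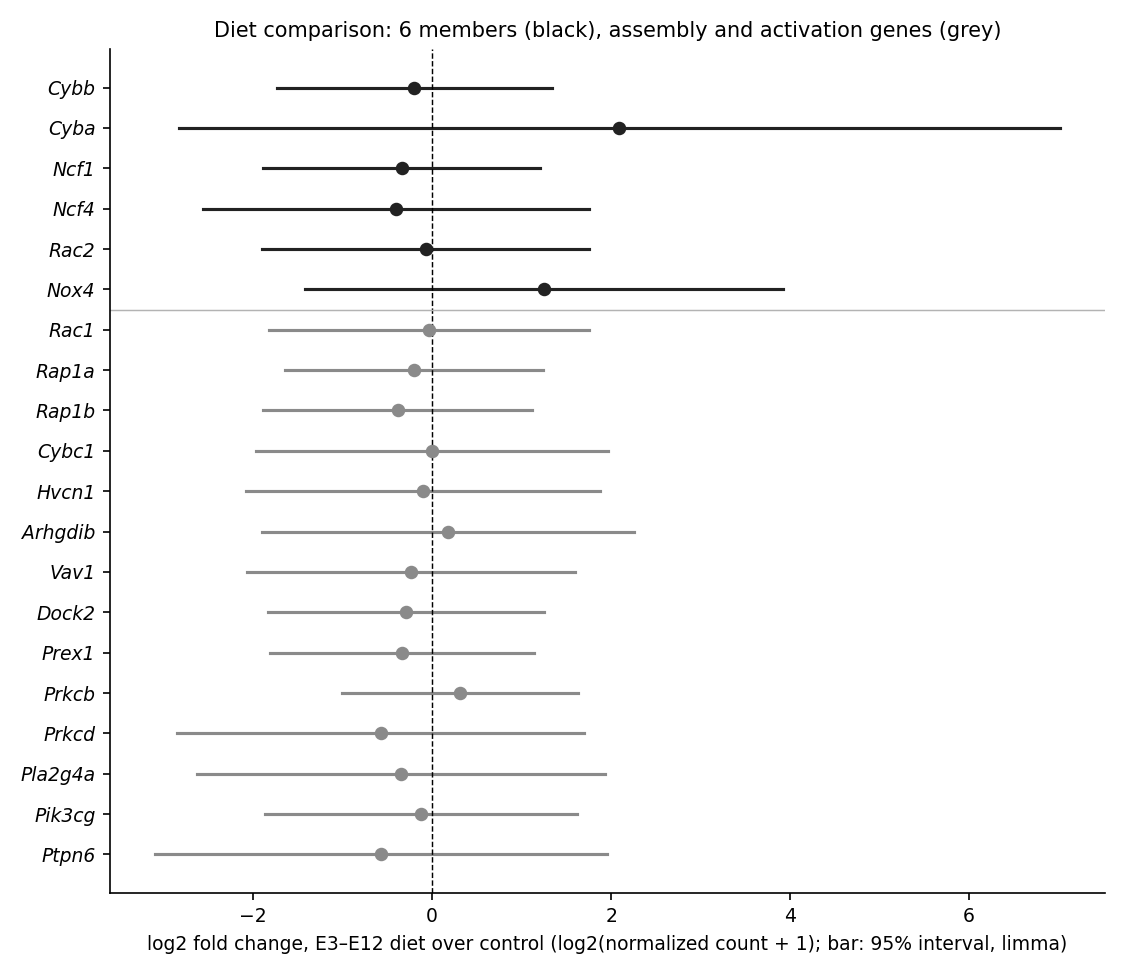
Log2 fold change (horizontal axis, E3–E12 diet over control, on log2(normalized count + 1)) with its 95% interval from limma for the 6 members (black) and 14 assembly and activation genes (grey). Every interval crosses 0, and that of Cyba is the widest, from −2.83 to 7.01.

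The remaining genes of the pathway were taken as 5 lists, and none of their genes passed the adjusted threshold. Of 9 other NADPH oxidases and their partners 4 were tested, with 3 higher, 1 lower and a median log2 fold change of 1.31. Among them Nox1, a catalytic relative of Cybb known from colon, measured 7.68, 1.40 and 1.52 normalized counts in the control libraries and 10.6, 32.5 and 20.8 in the diet libraries. The groups did not overlap, yet every value was low, and the log2 fold change was 2.45 (SE 0.78, limma unadjusted p = 0.0173, adjusted p = 0.999, exact permutation p = 0.1). Nox3, Noxa1, Duox2, Duoxa1 and Duoxa2 were below the filter on low values.

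All 12 enzymes that remove superoxide and peroxide were tested, with 9 higher, 3 lower and a median of 0.43. Gpx1, which reduces hydrogen peroxide, measured 335, 622 and 717 normalized counts in the control libraries and 1029, 977 and 1567 in the diet libraries, all 3 above the controls (log2 fold change 1.13, SE 0.60, limma adjusted p = 0.999, exact permutation p = 0.1). It was the only 1 of the 12 whose groups did not overlap, beside 5.90% of all genes. The study, with DESeq2 on counts, lists Gpx1 as upregulated at its adjusted threshold of 0.1. Sod1 and Sod2, which turn superoxide into peroxide in cytosol and mitochondria, had log2 fold changes of 0.51 (SE 0.62) and 0.35 (SE 0.55).

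Of the 8 genes that supply NADPH, 2 were higher and 6 lower, with a median of −0.21. Tkt, of the pentose phosphate pathway, measured 498, 836 and 431 normalized counts in the control libraries and 329, 428 and 390.3 in the diet libraries, with all diet values under the controls by a small margin (log2 fold change −0.57, SE 0.57, exact permutation p = 0.1). G6pdx, the first enzyme of that pathway, had a log2 fold change of 0.26 (SE 0.72). Of 8 transcription factors listed as candidate regulators of oxidase genes, 3 were higher and 5 lower, with a median of −0.28. Whether they act on the members' promoters was not tested. Spi1, which encodes PU.1, measured 1268, 6466 and 2499 normalized counts in the control libraries and 1835, 2650.3 and 5411 in the diet libraries. Irf8, which acts with PU.1, measured 936, 12500.4 and 2799 normalized counts in the control libraries, against 1684, 3266 and 2880.4 after the diet. Both overlapped between the groups, and both had their highest value in control replicate 2, as did Cybb and Rac2. So did 5 of the 8 factors in all and 7 of the 12 microglia markers, and a link between these genes was not tested.

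Of 13 receptors and adaptors that trigger the oxidase 11 were tested, with 2 higher, 9 lower and a median of −0.34, or −0.24 over the 10 without Tyrobp. Itgam, the CD11b gene, measured 12271, 23771 and 23544 normalized counts in the control libraries and 8307, 17963 and 34466 in the diet libraries. Tyrobp, the adaptor DAP12 that links several of these receptors to Syk, measured 182, 59.5 and 1494 normalized counts in the control libraries and was listed at 0 in all 3 diet libraries (limma unadjusted p = 0.000314, adjusted p = 0.999). No fold is given for it, since the table holds no reads by which a 0 could be bounded. Fcer1g, the other adaptor of this kind, was at 2449 to 6808 normalized counts in the controls and 3221 to 16534 in the diet libraries. Fpr1 and Fpr2 were below the filter.

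**Figure D5:**
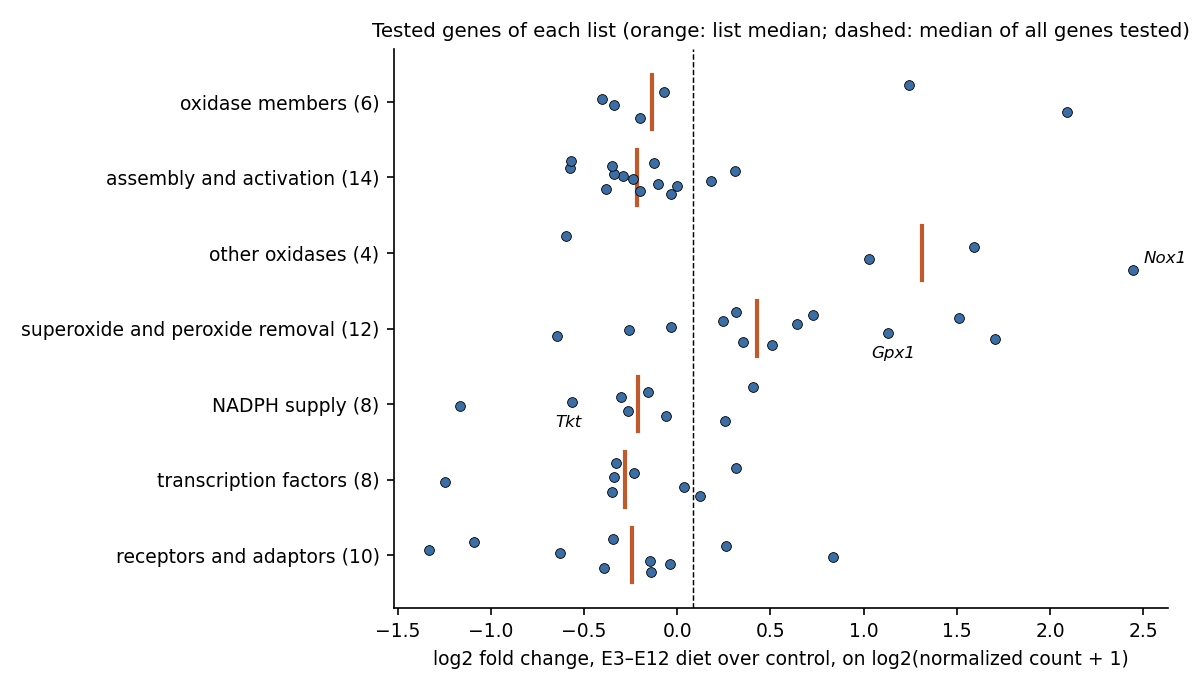
Log2 fold change (horizontal axis, E3–E12 diet over control, on log2(normalized count + 1)) of each tested gene of the members and 6 related lists, with the list median (orange) and the median of all genes tested (dashed, 0.09). Tyrobp is left out because it was listed at 0 in all diet libraries, and named genes are those whose groups did not overlap.

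Other cells that use this oxidase were followed by their markers. Of 12 neutrophil markers 10 were tested, and their summed level was 4164 to 9022 normalized counts in the controls and 2973 to 9286 in the diet group. Most of that sum was Csf3r, which microglia also express, at 1679 to 8466 normalized counts. Of the 12, 8 were highest in control replicate 2, among them S100a8 and S100a9, which encode a calcium-binding protein abundant in neutrophils, at 573 and 1289 normalized counts against 66.5 to 145 and 189.7 to 308 in the other libraries. The granule genes Mpo and Elane were highest in E3–E12 diet replicate 1, at 172 and 12.4 normalized counts, against 19.2 and 0 in control replicate 2. Ly6g, which defines mouse neutrophils, was at 0 in 3 libraries and at most 5.66. A peak in control replicate 2 was not particular to neutrophil genes. Of the 12 microglia markers 7 were highest there, as were 5 of the 7 markers of border-associated macrophages, but 0 of the 9 mural and fibroblast markers. Control replicate 2 is also the library with the highest Cybb and Rac2 values, and the part of neutrophils in them was not tested. The 7 markers of border-associated macrophages summed to 6019 to 21060.1 normalized counts in the controls, again highest in control replicate 2, and to 5645 to 9847 in the diet group. Within that list Pf4 measured 30.5, 36.5 and 173 normalized counts in the control libraries, against 2.25, 20.3 and 12.3 after the diet (log2 fold change −2.60, SE 1.02, limma unadjusted p = 0.0392, adjusted p = 0.999). Monocyte markers summed to 498 to 7557 and 254 to 2913 normalized counts and lymphocyte markers to 153 to 2031 and 307 to 741. Astrocyte markers summed to 1738 to 9132 normalized counts in the controls and 4723 to 9725 in the diet group, where Aldoc stood at 486 to 607 against 7.17 to 236 in the controls, without overlap. For endothelial markers the sums were 4821 to 12270.1 and 6728 to 12424, for neurons 261 to 1442 and 803 to 1702, and for oligodendrocytes 4994 to 42918 and 5882 to 23327.

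For each member the tested genes whose levels followed it most closely over the 6 libraries were listed by Pearson's r on log2(normalized count + 1), as a description in which all points share libraries and their depth. Cybb was followed by Mbtps2 (r = 0.996) and Map3k3 (r = 0.995), which like Cybb were highest in control replicate 2. Rac2 was followed by Bmp2k (r = 0.998) and Scamp5 (r = 0.997), also highest there. Cyba was followed by Nradd (r = 0.999) and Ly96 (r = 0.998), lowest in control replicate 2. For Ncf1 the closest were C1qc (r = 0.992), a complement chain made by microglia, and Rnf130 (r = 0.991), highest in control replicate 3. For Ncf4 they were Pfkfb3 and Faap20 (r = 0.989 for both), and for Nox4 Muc5b (r = 0.995) and Mrpl3 (r = 0.993), highest in E3–E12 diet replicate 1. With 6 points such values are common: between 43 and 183 of the 17864 genes compared exceeded 0.95 for a given member.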

How the data were processed

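Libraries from P15 NST microglia (3 control, 3 E3–E12 diet) were analysed from 1 table. The authors deposited normalized counts, a signal per gene made comparable across libraries, and per the submitters' processing notes used FastQC, STAR, featureCounts, DESeq2 and GRCm38. The deposited values carry the label sva, a short form of surrogate variable analysis. How the scaling was done, and whether surrogate variables were removed from the values, is not described in the sources used here. The study's methods describe DESeq2 on counts with an adjusted p under 0.1. The deposited values are not counts: 1.51% to 2.09% of values per library were whole multiples (within 0.01) of the smallest value, so reads could not be recovered and depth is unknown. Values were tested as log2(normalized count + 1) with limma 3.58.1 in R 4.3.3, two-sided, over the 18007 genes averaging 10 normalized counts or more, with Benjamini-Hochberg adjustment. Single genes and ratios were tested by exact permutation (Python 3.11.15, scipy 1.17.1). The code was tested on simulated data. Symbols were found for 26507 of 26789 gene identifiers, and exon lengths came from the GRCm38 gene models. A further gene is not reported here. The members and lists were chosen with earlier results of these data known. Named genes were the members, 4 partners by mechanism (Rac1, Rap1a, Cybc1, Hvcn1), listed genes with an unadjusted p under 0.05 or groups without overlap, and the 2 genes most like each member. Sod1, Sod2, G6pdx, Spi1, Irf8, Itgam, Fcer1g, Gpx4, Col1a1 and the neutrophil genes were added for their roles after values were seen. Litters are separate, so p-values measure spread between litters in the deposited values. How far adjustment before deposit changed that spread is unknown. Alternatives were other pseudocounts, filters and scalings, array weights, a mean-variance trend, a residual component, a replicate block and leaving out each library.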

Additional observations from a re-analysis of the deposited data

How the results depend on the processing

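No member passed the adjusted threshold under any of the 16 alternatives. Over all genes the count past it was 0, except 5 with array weights. The count at an unadjusted p under 0.05 was 327, and moved to 156 with a mean of at least 100, 491 with quantile normalization, 1423 with the first residual component and 1205 with array weights, and from 276 to 539 when libraries were left out in turn. Of 96 log2 fold changes of the members, 11 turned their sign. With array weights Cybb was 0.32 and Rac2 0.33, and Rac2 was also 0.10 with quantile normalization and 0.048 scaled to library totals. Leaving out libraries in turn gave −0.44 to 0.26 for Cybb (positive lacking control replicate 2), −0.052 to 3.72 for Cyba (negative lacking control replicate 2), −0.62 to 0.051 for Ncf1 (positive lacking E3–E12 diet replicate 1), −0.91 to 0.29 for Ncf4 (0.22 lacking control replicate 3, 0.29 lacking E3–E12 diet replicate 1) and −0.55 to 0.49 for Rac2 (0.49 lacking control replicate 2, 0.28 lacking E3–E12 diet replicate 1). Nox4 kept a positive sign, at 0.32 to 1.90 when libraries were left out and 0.27 with array weights. The cause was not tested. Ratios without overlap numbered 0 to 1 when libraries were left out, and of 77 alternative differences between the diets in a ratio, 18 had the other sign, each on leaving out a library. For Cyba to Cybb the difference went from 2.29 to −0.32 lacking control replicate 2, and for Ncf4 to Cybb from −0.21 to 0.66 lacking control replicate 3. None of the 77 moved by more than the pooled SD of the ratio. With 3 libraries a group, leaving 1 out cannot move a difference that far, so no stability is read from this. The median log2 fold change of all genes was 0.09, and 0.20 when scaled to library totals. Same-numbered libraries deviated together with correlations of 0.26, 0.03 and 0.14, so the numbers were not taken as pairs. With a replicate block, 468 genes had an unadjusted p under 0.05 and 0 passed the adjusted threshold. Values at or near 0, and 3 libraries a group, limit what could be detected.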
